A study of Mus musculus with 11 samples.

Results

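The genes described here encode the structural proteins of the basement membrane: the laminin chains Lama2, Lama4, Lama5, Lamb1, Lamb2 and Lamc1, the type IV collagen chains Col4a1 and Col4a2, and the nidogens Nid1 and Nid2. They were taken by gene symbol, with every probe set that carried that symbol alone, which gave 20 of the 45037 probe sets tested and 10 of 18193 genes. Expression was measured on 11 Affymetrix mouse arrays of cells sorted for green fluorescent protein (GFP) from the muscle of Pax3GFP/+ mice on a C57BL/6J background at postnatal day 1 (P1, n = 4 arrays), day 12 (P12, n = 4 arrays) and day 28 (P28, n = 3 arrays). All groups carry GFP at 1 allele of Pax3, which encodes a transcription factor of the muscle lineage, and dead cells were excluded by propidium iodide, so the gate follows the activity of that locus and not a satellite cell surface marker. The labels describe trunk muscle with proliferating satellite cells at P1 and P12, and abdominal, pectoral and intercostal muscle with satellite cells at P28. The labels call the arrays biological replicates without giving the number of animals in each, and the p-values measure the spread between these arrays. Every P28 array also carries another suffix in its internal sample name than all P1 and P12 arrays, so age, muscle and a possible batch cannot be told apart at P28.

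A basement membrane is a thin sheet of matrix on which cells sit, and each muscle fibre is wrapped in one. Laminins are trimers of an alpha, a beta and a gamma chain that polymerise at the cell surface, collagen IV forms a second network, and nidogens link both. Satellite cells, the stem cells of skeletal muscle, lie between the fibre and this sheet, which they touch through integrin and dystroglycan receptors. In muscle, the α2 chain Lama2 with a beta 1 or beta 2 chain and Lamc1 makes the main laminin of the fibre, and its loss causes a congenital muscular dystrophy. Lamb2 is concentrated at the neuromuscular junction, while Lama4 and Lama5 are also chains of blood vessel laminins.

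Promoter sequences of 7 of the 10 genes were found in RefSeq (GRCm38.p6). Those of the genes with the clearest changes are shown, 250 bases upstream of the annotated start, 5′ to 3′ on the strand of the gene. Capitals mark the GC box GGGCGG, the CCAAT box, the TATA box TATAAA and the E-box CANNTG on either strand; where these overlap, the capitals run together.
Lamb1, chr12:31265043-31265292, plus strand: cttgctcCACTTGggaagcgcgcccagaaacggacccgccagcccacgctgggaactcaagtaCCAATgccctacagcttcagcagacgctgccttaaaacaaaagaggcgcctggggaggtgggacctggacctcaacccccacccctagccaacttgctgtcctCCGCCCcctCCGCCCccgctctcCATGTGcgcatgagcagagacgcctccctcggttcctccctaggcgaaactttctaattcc
Lamb2, chr9:108479612-108479861, plus strand: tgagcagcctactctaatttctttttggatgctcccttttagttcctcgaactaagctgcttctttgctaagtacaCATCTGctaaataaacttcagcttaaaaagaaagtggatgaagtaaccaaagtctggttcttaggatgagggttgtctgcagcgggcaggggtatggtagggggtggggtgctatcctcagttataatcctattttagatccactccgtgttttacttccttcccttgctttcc
Lama5, chr2:180225860-180226109, minus strand: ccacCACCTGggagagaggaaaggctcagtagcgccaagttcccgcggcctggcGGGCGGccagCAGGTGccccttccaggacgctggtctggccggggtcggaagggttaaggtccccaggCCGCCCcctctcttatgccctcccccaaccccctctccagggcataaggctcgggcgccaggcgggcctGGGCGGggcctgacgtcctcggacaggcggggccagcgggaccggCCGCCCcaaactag
Nid1, chr13:13437352-13437601, plus strand: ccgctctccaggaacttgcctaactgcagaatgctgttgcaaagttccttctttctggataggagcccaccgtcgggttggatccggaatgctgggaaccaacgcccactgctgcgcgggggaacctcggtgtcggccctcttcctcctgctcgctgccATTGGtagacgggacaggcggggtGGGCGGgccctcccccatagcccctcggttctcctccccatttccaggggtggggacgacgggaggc
The Lamb1 window was 62.0% G and C and held 2 GC boxes, 1 CCAAT and 2 E-boxes. The Lamb2 window was 43.6% G and C, against a median of 52.4% over 32851 promoter windows, and held 1 E-box and 0 of the other motifs. Lama5 had 72.4% G and C with 4 GC boxes and 2 E-boxes, and Nid1 had 64.4% with 1 GC box and 1 CCAAT. Of all windows of this length, 32.7% held a GC box, 33.8% a CCAAT box, 12.4% a TATA box and 66.2% an E-box, so these matches are a description of common motifs and say nothing about the factors that bind. The starts of Col4a1 (minus strand) and Col4a2 (plus strand) lie head to head on chromosome 8, at 11312826 and 11312805. The annotated transcripts thus overlap by 22 bases, with both starts counted.

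The arrays were alike in median log2 value (5.501 to 5.575), which the quantile normalization in the authors' processing brings about. No pair was identical (0 pairs). The difference between the 3′ and 5′ control probe sets of Gapdh, which grows as RNA is degraded or copied short, was 1.62 to 2.79 at P1, 1.32 to 3.05 at P12 and 0.79 to 0.99 at P28. At both P1 and P12, replicates 1 and 2 had the larger values (2.59 to 3.05) and are called array set 1 here; replicates 3 and 4 (1.32 to 1.69) are called array set 2. The satellite cell markers were present at every age, and Pax7, a transcription factor that defines these cells, was at 10.75, 10.78 and 10.72 at P1, P12 and P28. Marker lists of satellite cells, endothelial cells, pericytes, fibroblasts and macrophages were all higher at P28, with values given further on. Values are given per probe set on the log2 scale, and "rose" and "fell" are used of probe sets with an adjusted p under 0.05 in limma over all 45037.

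**Figure D1:**
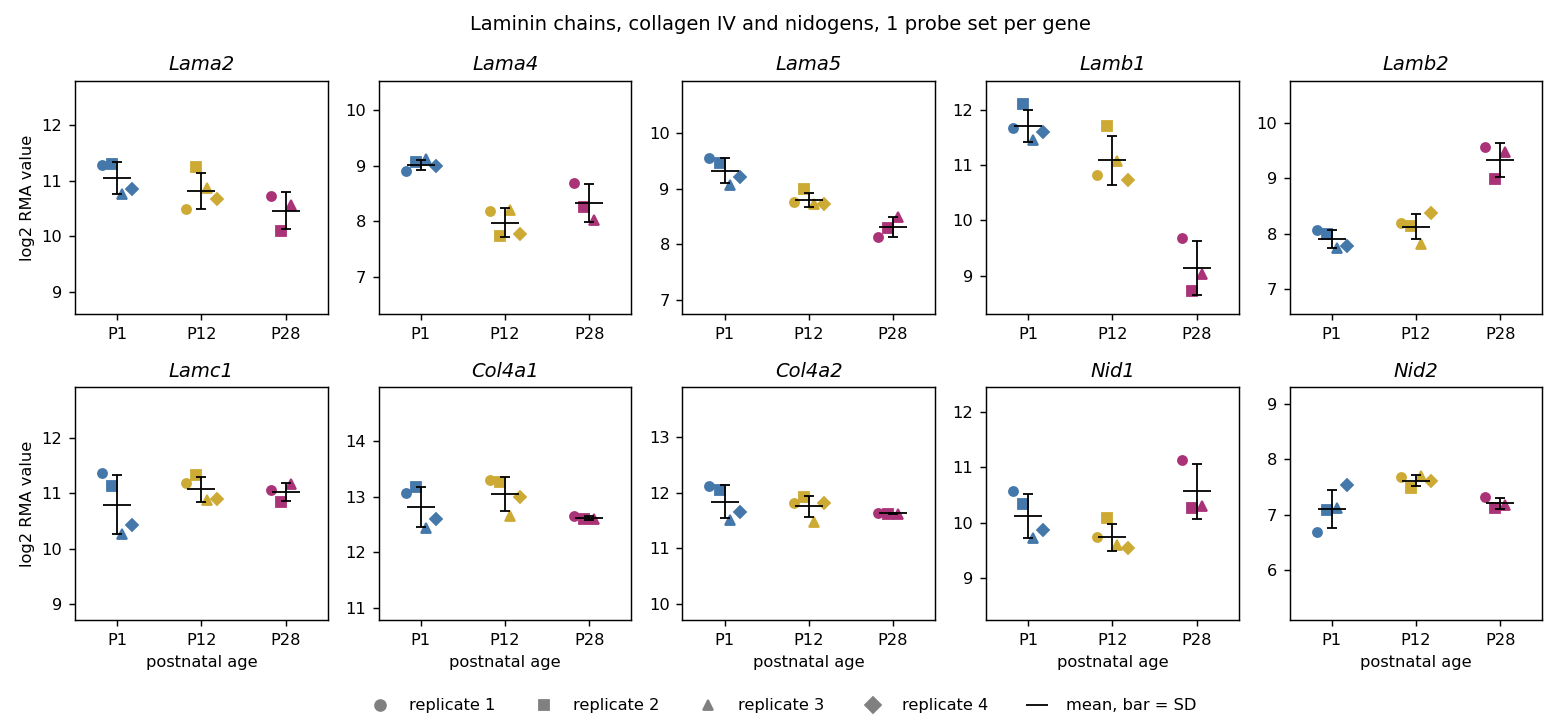
Log2 RMA values on each array (y axis, same span in every panel) at P1, P12 and P28 (x axis) for the probe set with the highest mean of each gene; symbols are replicates, black bars the mean and SD. The P28 arrays of Lamb1 (8.72 to 9.68) lie below all others and those of Lamb2 (8.99 to 9.55) above all others, while Col4a1 and Col4a2 overlap between the ages.

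Counted over the family, 0 of 20 probe sets rose and 3 fell at P12 against P1, where 3.25% of all probe sets rose and 1.59% fell (4.84% in either direction). At P28 against P12, 4 rose and 5 fell, beside 13.5% and 15.9% of all probe sets (29.4%). At P28 against P1, 3 rose and 8 fell, beside 17.6% and 17.4% of all (35%). The groups did not overlap for 3, 10 and 12 of the 20, beside 10.3%, 35.3% and 40.7% of all probe sets. The median change of the 20 was -0.26, -0.09 and -0.21 in these 3 comparisons, against 0.01, -0.05 and -0.05 over all probe sets. Lamb1 alone gave 4 of the 5 and 4 of the 8 decreases at P28, and the probe sets of 1 gene are not independent measures. The comparisons share arrays, so their counts are not independent of each other either.

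The beta chains of laminin moved in opposite directions at P28, and the fall of Lamb1 was the largest change among the 20 probe sets. Lamb1, the beta chain of most laminins of growing tissue, was highest at P1 and lowest at P28. Its brightest probe set (1424114_s_at) had 11.67, 12.11, 11.44 and 11.60 at P1, 10.82, 11.71, 11.07 and 10.73 at P12, and 9.68, 8.72 and 9.04 at P28. The P28 arrays lay below all P1 and P12 arrays, whereas P12 replicate 2 lay within the P1 range. At P28 it fell by 2.56 ± 0.26 (SE) against P1, which is 5.89-fold lower (limma adjusted p = 5.25e-06), and by 1.94 ± 0.26 against P12 (limma adjusted p = 8.71e-05). The change at P12 against P1 was -0.62 ± 0.24 and did not pass (adjusted p = 0.164). In bulk RNA, fewer cells of a type and less RNA per cell cannot be told apart.

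The other Lamb1 probe sets ran the same way. Probe set 1424113_at fell by 2.28 ± 0.25 at P28 against P1 and by 1.52 ± 0.25 against P12, and 1451241_at fell by 1.81 ± 0.25 and by 1.21 ± 0.25. The dimmest, 1446180_at, also fell in both comparisons (by 0.65 and 0.43), but all 3 of its P28 arrays were at or below the highest bacterial Trp control value (3.96), which marks background, so no reliable size can be given for its change, and its call against P12 ended in 6 of 21 alternatives. Against P1, the 4 probe sets had changes of -0.77 to -0.22 at P12, and 0 of them passed. Whether the P12 change passed depended on the setting. Without P12 replicate 2 the change of 1424113_at was -0.99 and that of 1424114_s_at was -0.83, and after quantile normalization they were -0.97 and -0.89, and all of these passed. With array set as a block, 1424113_at (-0.77) and 1451241_at (-0.60) passed, as they did with the Gapdh covariate (-0.74 and -0.64). The call was also made for 1424113_at without dim probe sets and for the mean of the Lamb1 probe sets (-0.55), which takes in the dim 1446180_at.

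Lamb2, the beta chain of synaptic and vascular laminins, was measured by 1 probe set (1416513_at). It had 8.07, 8.00, 7.75 and 7.77 at P1, 8.18, 8.13, 7.81 and 8.37 at P12, and 9.55, 8.99 and 9.46 at P28. The P28 arrays lay above all others, and the P12 and P1 arrays overlapped. Lamb2 rose at P28 by 1.21 ± 0.17 against P12 (2.31-fold, limma adjusted p = 0.000125) and by 1.44 ± 0.17 against P1 (2.71-fold, limma adjusted p = 2.01e-05). At P12 against P1 the change was 0.23 ± 0.15 and did not pass (adjusted p = 0.487). Both P28 calls held under all alternatives run, with changes of 1.10 to 1.38 and 1.26 to 1.61.

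Since both genes were read on the same arrays, the difference Lamb1 minus Lamb2 was compared over the ages. Its mean was 3.81 ± 0.22, 2.96 ± 0.56 and -0.19 ± 0.28 on the P1, P12 and P28 arrays (SD, n = 4, 4 and 3). The exact permutation test over ages gave p = 0.000173, the smallest that 11550 arrangements of the arrays can give, and adjusted p = 0.000693 over 4 pairs of chains. The change of this difference was -4.00 at P28 against P1, and -0.85 at P12 against P1. The size of the difference at 1 age compares probes of unequal affinity and has no meaning as a ratio of the chains; only its change with age does.

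The alpha chains Lama2, Lama4 and Lama5 each fell against P1 in at least 1 probe set and comparison, and each had its own course. Lama4, an alpha chain of vessels and nerve that lacks the outer arm of other laminins, fell at P12 in its brighter probe set. That probe set (1424807_at) had 8.91, 9.06, 9.12 and 9.01 at P1, 8.19, 7.74, 8.21 and 7.78 at P12, and 8.70, 8.26 and 8.03 at P28. The arrays at P12 and at P28 were all below those at P1, and those at P28 overlapped those at P12. It fell by 1.05 ± 0.16 at P12 against P1, 2.06-fold (limma adjusted p = 0.0022). Within array sets 1 and 2 the change was -1.02 and -1.07, and with 2 arrays an age neither passed (limma adjusted p = 0.139 and 0.0581). At P28 it fell by 0.70 ± 0.17 against P1 (limma adjusted p = 0.0056), and it was 0.35 ± 0.17 above P12, which did not pass (adjusted p = 0.145).

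The second Lama4 probe set (1424808_at), dimmer and more variable, differed in its P28 values. It had 5.001, 5.36, 5.95 and 6.24 at P1, 4.19, 4.18, 5.12 and 5.65 at P12, and 6.61, 6.63 and 5.79 at P28. It rose at P28 against P12 by 1.56 ± 0.37 (limma adjusted p = 0.00578), a call that ended with the Gapdh 3′ to 5′ difference as a covariate (0.65). At P28 against P1 it changed by 0.71 ± 0.37, opposite in sign to the brighter probe set, and did not pass (adjusted p = 0.157). That change passed with the replicate number as a block (0.95, limma adjusted p = 0.0295) and with array set 1 only (1.16), and was -0.26 with the Gapdh covariate. Its P12 change against P1, -0.85 ± 0.34, did not pass either (adjusted p = 0.186), but passed with array set as a block (limma adjusted p = 0.00474) and with the Gapdh covariate (-0.91). Both probe sets had their lowest mean at P12. The P28 level of Lama4 relative to P1 depended on the probe set, and the mean of both gave 0.00 against P1 and 0.95, which passed, against P12. The call of the brighter one against P1 also ended with array set 1 only (-0.66).

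Lama5, an alpha chain of fetal muscle, synapse and vessel basement membranes, fell at both steps in its brightest probe set only. The brightest probe set (1427010_s_at) had 9.56, 9.46, 9.07 and 9.21 at P1, 8.76, 8.997, 8.72 and 8.72 at P12, and 8.13, 8.30 and 8.49 at P28. In this order each age lay below the one before it, with no overlap. At P12 it fell by 0.52 ± 0.13 against P1 (limma adjusted p = 0.0405); within array sets 1 and 2 the change was -0.63 and -0.42, and neither passed. At P28 it fell by 0.49 ± 0.15 against P12 (limma adjusted p = 0.0202) and by 1.02 ± 0.15 against P1, 2.03-fold (limma adjusted p = 0.000116).

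The P28 against P1 call of Lama5 1427010_s_at held in all alternatives run, with changes of -1.22 to -0.79, and the smaller steps did not. With the replicate number as a block the P12 change of 1427010_s_at missed the threshold (-0.52, limma adjusted p = 0.0558), and the call also ended without any of P1 replicates 1, 2 and 4, P12 replicates 1, 3 and 4 or P28 replicate 2 (-0.56 to -0.45), and the P28 against P12 call without P12 replicate 2 (-0.43) or P28 replicate 1 (-0.41) or 2 (-0.49), with array set 2 only (-0.42) and with the Gapdh covariate (-0.28). The second probe set, 1427009_at, fell by 1.27 ± 0.28 at P28 against P1 (limma adjusted p = 0.00316). Its changes of -0.57 ± 0.26 at P12 against P1 and -0.70 ± 0.28 at P28 against P12 did not pass (limma adjusted p = 0.262 and 0.0779). With the replicate number as a block both passed (-0.57 and -0.60, limma adjusted p = 0.0332 and 0.01), as they did with the Gapdh covariate (-0.61 and -1.47). The first also passed with array set as a block, and the second without dim probe sets, without P12 replicate 2 (-0.89) or P28 replicate 3 (-0.91) and with array set 2 only (-1.17). The third, 1459614_at, fell by 0.51 ± 0.13 at P12 against P1 (limma adjusted p = 0.042), with 3 of its 4 P12 arrays at or below the Trp control value and 1 within the P1 range, so that change is of uncertain size. That call ended with only the 2 ages compared, with array set 1 or 2 only, and without any single replicate except P12 replicate 2 (-0.58 to -0.44). At P28 this probe set was 0.26 ± 0.14 above P12, which did not pass (adjusted p = 0.203) but did with the Gapdh covariate (0.53).

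Lama2, the alpha chain of the muscle fibre, had 11.29, 11.31, 10.76 and 10.86 at P1, 10.49, 11.24, 10.88 and 10.66 at P12, and 10.72, 10.09 and 10.57 at P28. The P28 arrays were all below the P1 arrays, and the P12 arrays overlapped both. It fell at P28 against P1 by 0.59 ± 0.21, 1.51-fold (limma adjusted p = 0.0378), which no longer passed without P1 replicate 1 or 2 (-0.51 in each case) or P28 replicate 2 (-0.41) or 3 (-0.65), with array weights (-0.52), with array set 2 only (-0.35) or with the Gapdh covariate (-0.30). The changes of -0.24 ± 0.19 at P12 against P1 and -0.36 ± 0.21 at P28 against P12 did not pass. The difference Lama2 minus Lama4 was 2.03 ± 0.34, 2.84 ± 0.50 and 2.14 ± 0.37 on the P1, P12 and P28 arrays (SD, n = 4, 4 and 3) (exact permutation p = 0.0476, adjusted p = 0.0476), a call that every left-out array except P12 replicate 1 ended.

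Lamc1 is the gamma chain shared by most laminins, and its probe sets differed. The brighter one (1423885_at) averaged 10.79 ± 0.53, 11.07 ± 0.23 and 11.02 ± 0.17 on the P1, P12 and P28 arrays (SD, n = 4, 4 and 3), and 0 of its 3 changes passed (adjusted p = 0.481 to 0.898). Its change at P28 against P1 was 0.23, with a 95% interval of -0.27 to 0.73. That change passed with the Gapdh covariate (0.78), with the mean of both probe sets (0.58) and with array set 2 only (0.68), and was -0.22 with array set 1 only and -0.019 after quantile normalization, where it did not pass. The other probe set (1423886_at) averaged 10.01 ± 0.30, 10.29 ± 0.69 and 10.93 ± 0.47 in the same order and rose at P28 against P1 by 0.92 ± 0.31 (limma adjusted p = 0.0351). That call ended with the Gapdh covariate (0.19), after quantile normalization (0.65), with array set 2 only (0.67), and when P1 replicate 1 or 2 (0.81 and 0.86) or P28 replicate 1 or 3 (0.92 and 0.69) was left out. Against P12 the P28 change of 1423886_at passed with the replicate number as a block (0.81, limma adjusted p = 0.0132), without P12 replicate 4 (0.91) and with array set 1 only (1.15).

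**Figure D2:**
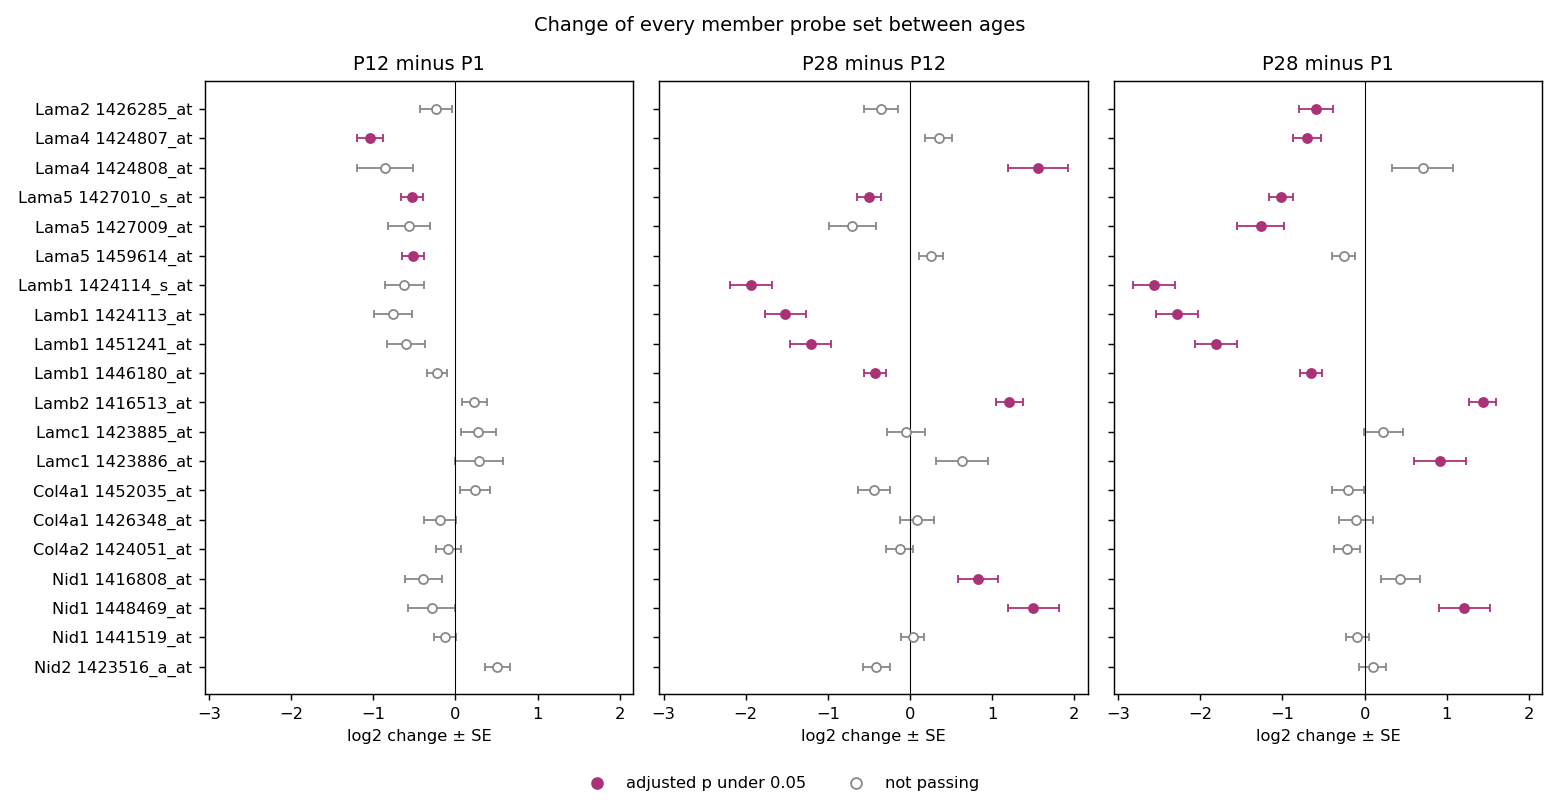
Log2 change ± SE (x axis) of all 20 probe sets (y axis) for each pair of ages; filled points have an adjusted p under 0.05. The Lamb1 probe sets lie at -2.56 to -0.65 and Lamb2 at 1.44 in P28 against P1, and the collagen IV probe sets lie between -0.43 and 0.24 in all 3 comparisons.

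The collagen IV chains, which assemble into the network that gives the basement membrane its strength, passed in none of the comparisons as fitted here. Col4a1 (1452035_at) was at 12.44 to 13.17 at P1, 12.65 to 13.31 at P12 and 12.60 to 12.66 at P28. Col4a2 (1424051_at) was at 11.52 to 12.13, 11.47 to 11.92 and 11.62 to 11.64, and the ages overlapped in both genes. At P28 against P1 the changes were -0.20 (95% interval -0.62 to 0.22) for Col4a1 and -0.21 (95% interval -0.56 to 0.13) for Col4a2. The second Col4a1 probe set (1426348_at) changed by -0.19 at P12 against P1. At P28 its change was 0.08 against P12 and -0.10 against P1.

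Within P1 and P12, these collagen values split by array set: at P1, Col4a1 averaged 13.13 in array set 1 and 12.51 in array set 2, and Col4a2 12.09 and 11.59. The direction of the small collagen changes at P28 therefore depended on the arrays, with 0.11 for Col4a1 (1452035_at) and 0.04 for Col4a2 at P28 against P1 from array set 2 only, and -0.50 and -0.46, which passed, from array set 1 only. A further quantile normalization gave -0.42 and -0.50 at P28 against P1, which also passed, and -0.37 for Col4a2 at P12 against P1, which passed too. The change of Col4a1 (1452035_at) at P28 against P12 passed after quantile normalization (-0.43), with the replicate number as a block (-0.48), without P12 replicate 3 (-0.57) and from array set 1 only (-0.67). The other Col4a1 probe set (1426348_at) passed at P28 against P1 after quantile normalization (-0.38) and from array set 1 only (-0.47), and at P28 against P12 with the Gapdh covariate (0.58). The difference Col4a1 minus Col4a2 was 0.98 ± 0.09, 1.30 ± 0.15 and 0.99 ± 0.02 on the P1, P12 and P28 arrays (SD, n = 4, 4 and 3) (exact permutation p = 0.00918, adjusted p = 0.0184). That result is for Col4a1 probe set 1452035_at. The mean of both Col4a1 probe sets gave an adjusted p of 0.454 in the same exact test, the other probe set alone was not tested, and leaving out any P28 array gave 0.0533 to 0.0635.

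The nidogens are glycoproteins that bind the laminin gamma chain and collagen IV. Nid1 was higher at P28 than at P12 in both probe sets that were above background. The brighter one (1416808_at) had 10.58, 10.34, 9.73 and 9.87 at P1, 9.74, 10.09, 9.59 and 9.54 at P12, and 11.14, 10.26 and 10.31 at P28. The P28 arrays lay above all P12 arrays and overlapped those of P1. It rose by 0.83 ± 0.24 at P28 against P12, 1.77-fold (limma adjusted p = 0.019), a call that ended without P28 replicate 1 (0.54) and with array set 1 only (0.65). Its change of 0.44 ± 0.24 at P28 against P1 did not pass (adjusted p = 0.179), but did with the mean of the probe sets (0.52) and with array set 2 only (0.77). That mean also takes in the background probe set 1441519_at, described below.

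The second Nid1 probe set (1448469_at) had 7.95, 7.84, 8.35 and 8.74 at P1, 7.37, 7.39, 8.35 and 8.60 at P12, and 9.90, 9.21 and 9.19 at P28, with all P28 arrays above the others. At P28 it rose by 1.503 ± 0.311 against P12 and by 1.21 ± 0.31 against P1 (limma adjusted p = 0.00248 and 0.00781), and with the Gapdh covariate the changes were 0.71 and 0.37 and neither passed. With that covariate the brighter probe set rose by 1.28 and 0.92. The third probe set (1441519_at) was at 3.20 to 3.68 on all arrays, at or below the highest Trp control, and is no measure of Nid1.

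Nid2, the second nidogen, averaged 7.10 ± 0.34, 7.61 ± 0.09 and 7.20 ± 0.10 on the P1, P12 and P28 arrays (SD, n = 4, 4 and 3). Its changes of 0.51 ± 0.15 at P12 against P1 and -0.41 ± 0.16 at P28 against P12 did not pass (limma adjusted p = 0.0718 and 0.0733), although the P28 arrays (7.12 to 7.31) lay below the P12 arrays (7.48 to 7.69). The first passed with array set as a block (0.51), with the Gapdh covariate (0.50), without P1 replicate 4 (0.65) and where 1 mean per gene was tested. The second passed after quantile normalization (-0.49), with only the 2 ages compared (limma adjusted p = 0.0284), with the Gapdh covariate (-0.61) and without P1 replicate 1 or 4. The difference Nid1 minus Nid2 was 3.03 ± 0.69, 2.13 ± 0.32 and 3.37 ± 0.39 on the P1, P12 and P28 arrays (SD, n = 4, 4 and 3), lowest at P12 (exact permutation p = 0.0407, adjusted p = 0.0476). Leaving out any array except P1 replicate 1 or 4 ended that call.

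Probe sets of 1 gene also differed between the array sets. Of 6 genes with 2 or more probe sets that averaged over 1 log2 unit above the highest Trp control at P1 and above it at P12, 4 (Lama5, Lamb1, Lamc1 and Nid1) had 1 probe set higher in array set 1 and another higher in array set 2, at both P1 and P12. For Nid1 the difference between array set 1 and array set 2 was 0.66 at P1 and 0.34 at P12 for 1416808_at, and -0.65 and -1.10 for 1448469_at. For Lamc1 it was 0.89 and 0.38 for 1423885_at and -0.51 and -1.02 for 1423886_at. The Gapdh 3′ to 5′ difference was higher in array set 1 and lowest at P28, and 3 probe sets that were lower in array set 1 (Lama4 1424808_at, Lamc1 1423886_at and Nid1 1448469_at) lost a rise at P28 with that covariate. Lama5 1427009_at and Lamb1 1451241_at were also lower in array set 1, and with the covariate their changes at P28 against P1 were -2.08 and -2.44, against -1.27 and -1.81 without it. The P28 against P1 changes of all 5 probe sets were thus lower with the covariate than without it. The array sets were split by this same Gapdh difference. A probe set chosen for being lower in array set 1 is therefore bound to have a lower P28 change with the covariate, and this is no separate result. The part of RNA quality in these values was not tested, and the places of the probes on the transcripts were not used here.

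**Figure D3:**
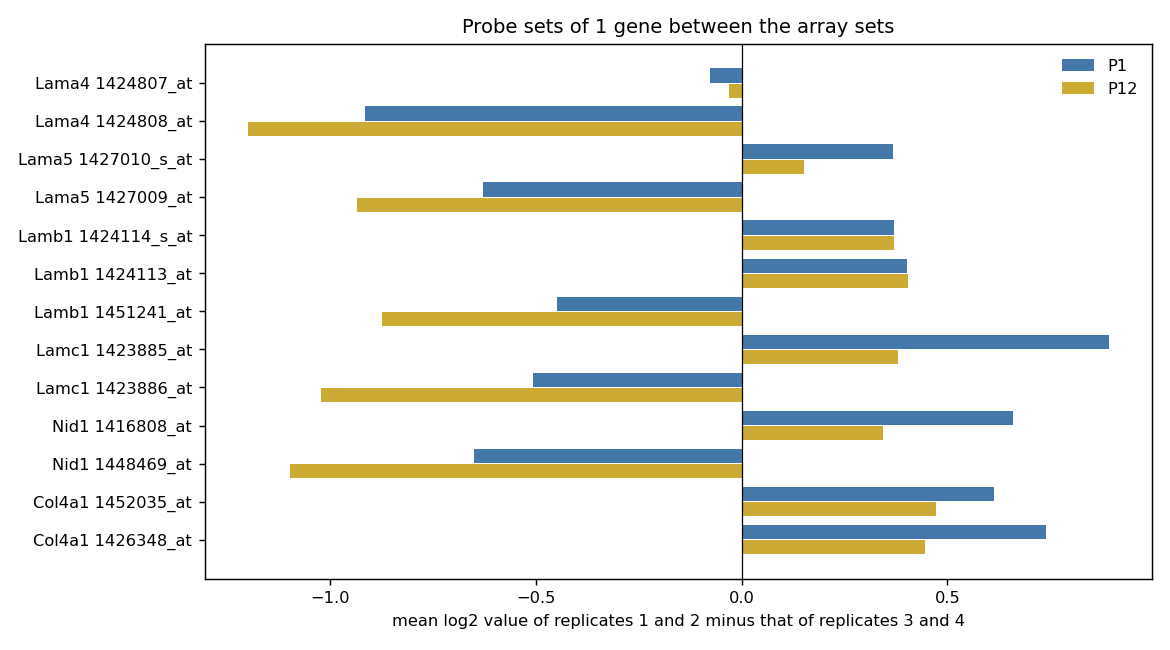
Mean log2 value of replicates 1 and 2 minus that of replicates 3 and 4 (x axis) at P1 and P12 for the probe sets of 6 genes (y axis). Pairs of probe sets of Lama5, Lamb1, Lamc1 and Nid1 point in opposite directions, from 0.89 for Lamc1 1423885_at to -1.10 for Nid1 1448469_at, whereas both Col4a1 probe sets point the same way.

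Most marker lists of other cell types were higher at P28. Over all genes with 1 probe set each, 15.5% rose and 15.4% fell at P28 against P12, and 19.9% and 16.3% at P28 against P1. Of 14 endothelial genes, 12 rose and 0 fell at P28 against P12, and the array means of the list were 7.88 to 8.49 at P28 against 6.23 to 6.79 at P12. For 12 pericyte and smooth muscle genes 7 rose and 0 fell (8.55 to 8.72 against 7.58 to 7.98), for 11 fibroblast and fibro-adipogenic genes 7 rose and 0 fell (10.39 to 11.24 against 9.11 to 9.33), and for 12 macrophage and leukocyte genes 7 rose and 0 fell (7.15 to 8.04 against 6.07 to 6.38). The array means of 7 Schwann cell genes were at 6.18 to 6.72 at P28 and 6.26 to 6.36 at P12, with 2 up and 1 down. Of 12 satellite cell markers, 5 rose and 0 fell (10.50 to 10.65 against 9.72 to 9.97). The median change at P28 against P12 was 1.61 for the endothelial list, 0.89 for the pericyte list, 1.91 for the fibroblast list and 1.35 for the macrophage list. It was 0.11 for the Schwann cell list and 0.18 for the satellite cell list, against -0.03 over all genes with 1 probe set each. Against P1, 13 endothelial, 8 pericyte, 6 fibroblast, 6 macrophage, 2 Schwann cell and 7 satellite cell genes rose at P28, and 1 pericyte and 1 Schwann cell gene fell. On the P28 arrays, 0 of the markers of these 6 lists were at or below the Trp control value on all 3 arrays.

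Pecam1 and Cdh5, adhesion proteins that define endothelial cells, rose at P28 against P12 by 2.43 ± 0.28 and 2.58 ± 0.34. Vessel cells and fibroblasts are known to make basement membrane proteins of their own, and the part of these cells in the P28 values of the family was not tested. These marker lists were higher on the P28 arrays, and the members went both ways there. With the brightest probe set of each of the 10 genes, 2 rose and 2 fell at P28 against P12. Lamb2 (1.21) and Nid1 (0.83) rose, and Lamb1 (-1.94) and Lama5 (-0.49) fell, beside 15.5% and 15.4% of all genes with 1 probe set each. At P12 against P1, 3.94% of all genes with 1 probe set each rose and 1.85% fell. In that comparison 0 of 14 endothelial genes passed, 2 of 12 pericyte genes rose and 1 fell, and 2 of 11 fibroblast genes fell. Pdgfra, a receptor of mesenchymal cells, fell by 1.45 ± 0.29 and Mfap5 fell by 1.01 ± 0.27. The median change at P12 against P1 was -0.17 for the whole fibroblast list and 0.31 for the endothelial list. The part of these cell types in the P12 decrease of Lama4 was not tested.

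**Figure D4:**
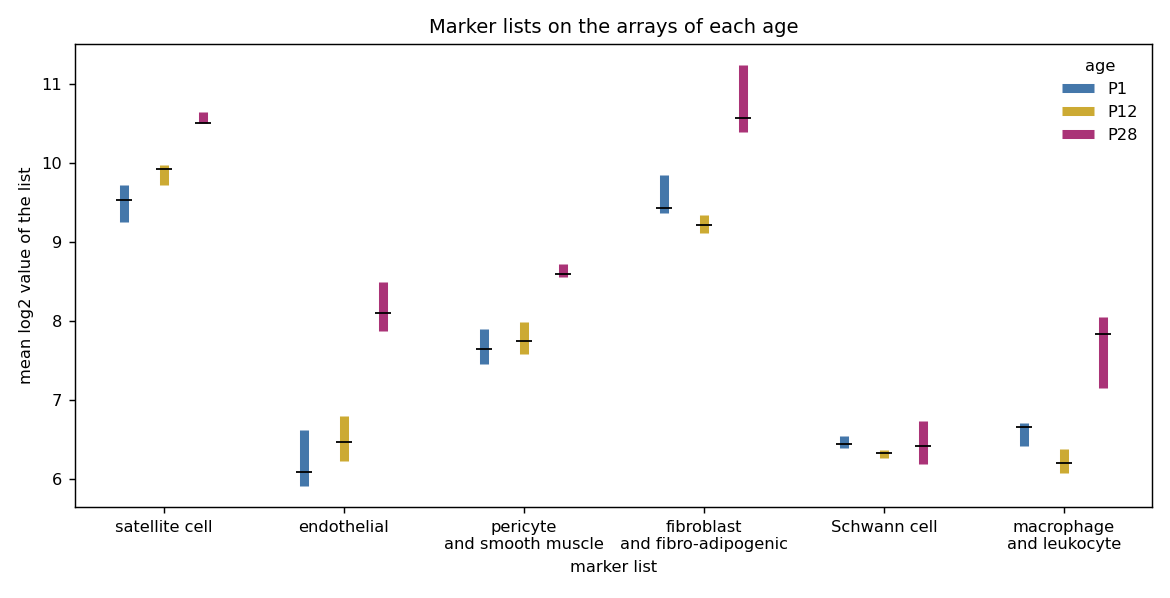
Mean log2 value of each marker list (y axis) by list (x axis) and age; bars run from the lowest to the highest array, black marks are medians. The satellite cell, endothelial, pericyte, fibroblast and macrophage lists are higher on the P28 arrays than on all P1 and P12 arrays. The Schwann cell list overlaps between the ages.

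Other basement membrane components were described with 1 probe set per gene, over which 3.94% rose and 1.85% fell (5.78% in all) at P12 against P1, 15.5% and 15.4% (30.9%) at P28 against P12, and 19.9% and 16.3% (36.3%) at P28 against P1. The median change over all these genes was 0.02, -0.03 and -0.02 in the 3 comparisons. Perlecan (Hspg2), the large heparan sulfate proteoglycan of these sheets, averaged 9.66 ± 0.31, 9.79 ± 0.38 and 10.11 ± 0.25 on the P1, P12 and P28 arrays (SD, n = 4, 4 and 3), and did not pass in any comparison (limma adjusted p = 0.816, 0.294 and 0.124). Of the 34 genes of this list, perlecan included, 1 rose and 1 fell at P12 against P1: the collagen-binding protein Sparc rose by 0.72 ± 0.16 and the transmembrane collagen Col17a1 fell by 1.89 ± 0.17. At P28 against P12, 14 rose and 5 fell, led by Ecm1 (2.96 ± 0.21), Smoc2 (2.80 ± 0.27), which is also in the fibroblast list, and Tinagl1 (2.02 ± 0.26). At P28 against P1, 13 rose and 5 fell, led by Ecm1 (2.60 ± 0.21), Tinagl1 (2.36 ± 0.26) and Smoc2 (2.01 ± 0.27). The median change of the list was -0.10, 0.20 and 0.31 in the same order of comparisons.

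Among 20 receptors of laminin and collagen IV and the enzymes that glycosylate dystroglycan, 3 rose and 0 fell at P12 against P1. They were the tetraspanin Cd151 (0.85 ± 0.14), which associates with laminin-binding integrins, dystroglycan itself (Dag1, 0.63 ± 0.17) and the glycosyltransferase B4gat1 (0.61 ± 0.13). At P28 against P12, 4 rose and 3 fell, with the integrin beta chain Itgb3 up by 1.62 ± 0.26, the integrin α6 chain Itga6, a laminin receptor, down (-0.94 ± 0.22) and the collagen receptor Ddr2 up by 0.58 ± 0.15. At P28 against P1, 4 rose and 1 fell, with Itga6 at -1.32 ± 0.22, Cd151 at 1.30 ± 0.15 and Itgb3 at 1.10 ± 0.26. The median of the 20 changes was 0.11, -0.07 and 0.04.

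In the list of collagen and laminin folding and secretion, 2 of 28 genes rose and 1 fell at P12 against P1, 9 rose and 1 fell at P28 against P12, and 12 rose and 2 fell at P28 against P1. The disulfide isomerase Pdia3 (0.73 ± 0.17) and the collagen chaperone Serpinh1 (0.70 ± 0.16) rose and the prolyl hydroxylase family member P3h3 (-0.60 ± 0.13) fell at P12. P4ha1 and P4ha2, catalytic subunits of the enzyme that hydroxylates collagen prolines, rose at P28 against P12 by 1.66 ± 0.15 and 1.43 ± 0.22, and P3h3 rose by 1.20 ± 0.14. Against P1 they rose by 1.75 ± 0.15 (P4ha1) and 1.93 ± 0.22 (P4ha2), and Pdia3 by 1.61 ± 0.18. The median of the 28 changes was 0.13, 0.24 and 0.32. These enzymes serve fibrillar collagens as well as collagen IV.

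Of 27 matrix proteases and inhibitors, 3 rose and 3 fell at P12 against P1, 15 rose and 1 fell at P28 against P12, and 16 rose and 1 fell at P28 against P1. At P12 the urokinase Plau rose by 1.12 ± 0.22 and the protease Htra1 by 1.09 ± 0.20, and the membrane metalloprotease Mmp16 fell by 1.02 ± 0.15. The metalloprotease inhibitors Timp4 (2.19 ± 0.32) and Timp1 (1.90 ± 0.18) and the plasminogen activator Plat (1.85 ± 0.22) rose most at P28 against P12. Against P1 the largest changes were those of Plat (2.69 ± 0.22), Plau (2.39 ± 0.24) and the cathepsin Ctsl (1.64 ± 0.19). The median of the 27 changes was 0.02, 0.50 and 0.49. The P28 counts of these lists stand beside the higher marker lists of other cell types, whose part in them was not tested.

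The genes most like each chain were taken by Pearson r over the 11 arrays among 18192 other genes, as a description in which arrays of an age and array set move together. Lamb1 was most like Gprasp1, Zc3hav1l and Erlin2 (0.99, 0.98 and 0.98), and Lamb2 most like Rnf213, Lhfp and Fstl3 (0.99, 0.98 and 0.98). Lama5 was most like Cdk8 (0.99), Nid1 most like Ppfibp1 (0.99) and Lama4 most like Rps27 (0.93). The partner chains were not closest to each other. Col4a2 ranked 684 in the order of Col4a1 (0.82), and by deviations from the age means alone its value was 0.94 at rank 182. In the order of Col4a2, Col4a1 ranked 165, and 72 by deviations. Nid2 ranked 16936 in the order of Nid1 (-0.58), and Lamc1 ranked 10124 in that of Lamb1 (-0.05). By deviations these 2 values were -0.39 at rank 15397 and 0.50 at rank 2709.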

How the data were processed

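Values were deposited as log2 expression per probe set, made by the authors with RMA, which corrects background, quantile normalizes arrays and summarises probes by median polish. Per the submitters' processing notes the tools named are affy, RMA and Affymetrix Expression Console, with no version; a genome build and whether all arrays were processed together are not given in the sources used here. Array minima were higher at P28 (1.65 to 2.09) than at the other ages (-0.78 to 0.48). Of 45101 probe sets, 64 manufacturer controls were left out, and 34945 of the rest carried 1 gene symbol; 0 symbols needed an update through RefSeq. Arrays give no read depth, and their number limits the precision.

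Groups were taken from the ages in the titles. All 45037 probe sets were fitted with limma 3.58.1 in R 4.3.3 on group means over all 11 arrays (8 residual and 5.82 prior degrees of freedom), two-sided, with Benjamini-Hochberg adjustment over all of them. Differences between 2 chains were tested by exact permutation of the F statistic over 3 ages, adjusted over 4 pairs. Each gene was described first by the probe set of highest mean level, then by the others. From each other list up to 3 passing genes with the largest change were named per comparison, and Hspg2 always; 14 of 191 entries of these and the marker lists had no probe set of that symbol alone. Members, lists and alternatives were chosen with earlier results of these data known. The fit was tested on simulated data. Between P1 and P12 arrays of the same replicate number, deviations from the group means correlated at 0.14 to 0.31. P1 replicates 1, 2, 3 and 4 were most like P12 replicates 2, 1, 3 and 3. Each of these matches lay within the same array set, while a pairing by number was not shown. The main fit has no term for array set. For P28 arrays and those of the same number at other ages, correlations were -0.12 to 0.09. P1 replicates 1, 2 and 3 were most like P28 replicates 1, 2 and 3, and P12 replicates 1, 2 and 3 most like P28 replicates 1, 1 and 2.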

Additional observations from a re-analysis of the deposited data

Results flagged for a closer look

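In 2 of 40 groups of 4 arrays, 1 array stood apart from the others by Dixon's test (critical value 0.829), where chance alone gives about 1 in 20. Both were Lama5 probe sets on P12 replicate 2. Probe set 1427010_s_at had 8.997 on that array and 8.72 to 8.76 on the others, and its gap took 0.882 of the whole range. Probe set 1459614_at had 4.22 on that array and 3.76 to 3.78 on the others, at or below the highest Trp control, and its gap took 0.949 of the range.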

How the results depend on the processing

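Of the 60 changes of single probe sets, 23 passed, and over their 522 values under alternatives 465 kept direction and call, 56 no longer passed and 1 changed sign. The 2 runs with only array set 1 or only array set 2 were chosen after seeing the data. At P12 against P1 the count of probe sets that rose (0) was 1 with the mean of the probe sets of a gene, the array set block or the Gapdh covariate, and 0 to 1 without single replicates. The count that fell (3) was 6 after quantile normalization, 7 with the array set block or the covariate, 0 with array set 1 or 2 only, and 1 to 5 without single replicates (5 without P12 replicate 2). At P28 against P12 the count that rose (4) was 2 with 1 probe set per gene and 3 to 5 without single replicates. The count that fell (5) was 2 with 1 probe set or the mean per gene and 3 without _x_at and _s_at probe sets. It was 7 after quantile normalization and 3 to 6 without single replicates (3 without P28 replicate 1). At P28 against P1 the count that rose (3) was 1 with 1 probe set per gene, 2 after quantile normalization, 4 with array set 1 or 2 only and 2 to 3 without single replicates. The count that fell (8) was 4 with 1 probe set and 3 with the mean per gene, and 7 to 8 without single replicates. It was 11 after quantile normalization, 10 with array set 1 only, 7 with array set 2 only and 6 without _x_at and _s_at probe sets. Not every setting with a small shift is listed. Fewer probe sets are tested with 1 value per gene, and the mean per gene also takes in probe sets at or near the Trp control value. The cause of the other shifts was not tested. With the replicate block, 0 rose and 3 fell at P12 against P1, 5 rose and 7 fell at P28 against P12, and 4 rose and 8 fell at P28 against P1.

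For pairs of chains, the adjusted exact permutation p without single replicates was 0.0019 to 0.00381 for Lamb1 minus Lamb2, 0.0019 to 0.0635 for Col4a1 minus Col4a2, 0.0241 to 0.1 for Nid1 minus Nid2 and 0.033 to 0.138 for Lama2 minus Lama4. Lama2 minus Lama4 had 0.0513 on quantile-normalized values and 0.0545 when probe sets were averaged, and Col4a1 minus Col4a2 had 0.454 on such averages.

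Changes that took the other sign numbered 33, from -0.26 to 0.47, and 0 of them passed. With the Gapdh covariate, P28 against P1 was 0.43 (Col4a1 1426348_at), 0.30 (Col4a1 1452035_at), 0.11 (Col4a2), -0.26 (Lama4 1424808_at), 0.029 (Lama5 1459614_at), 0.0196 (Nid1 1441519_at) and -0.11 (Nid2), and P28 against P12 was 0.037 (Col4a1 1452035_at), 0.18 (Col4a2), 0.47 (Lamc1 1423885_at) and -0.051 (Lamc1 1423886_at). With array set 2 only, P28 against P1 was 0.27 (Col4a1 1426348_at), 0.11 (Col4a1 1452035_at), 0.0405 (Col4a2) and -0.12 (Nid2), P28 against P12 was 0.14 (Lamc1 1423885_at), and P12 against P1 was 0.055 (Col4a2). With array set 1 only, P28 against P12 was -0.14 (Col4a1 1426348_at) and P28 against P1 was -0.22 (Lamc1 1423885_at). Quantile normalization gave -0.019 (Lamc1 1423885_at) and -0.071 (Nid2), and array weights 0.015 (Col4a1 1426348_at) and -0.021 (Nid2), all at P28 against P1. The mean of probe sets gave 0.0038 for Lama4 at P28 against P1 and 0.29 for Lamc1 at P28 against P12. Without single replicates, the values of 5 changes included the other sign: P28 against P1 ran from -0.26 to 0.049 (Col4a1 1426348_at) and from -0.036 to 0.24 (Nid2), both turned by leaving out P1 replicate 1. P12 against P1 of Col4a2 ran from -0.19 to 0.0093 (P1 replicate 1 or P12 replicate 3), P28 against P12 of Lamc1 1423885_at from -0.12 to 0.042 (P12 or P28 replicate 2), and P28 against P12 of Nid1 1441519_at from -0.041 to 0.12 (P12 replicate 1 or 4). The cause of these was not tested.

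Over all probe sets, 1464 rose and 717 fell at P12 against P1, against 2199 and 936 with array weights, 2789 and 1276 with the array set block, 2371 and 1055 with the covariate, 824 and 371 with 1 probe set per gene, 865 and 388 with the mean per gene, 103 and 69 with array set 1 only, 502 and 231 with array set 2 only, and 635 to 1556 and 371 to 718 without single replicates. At P28 against P12, 7161 fell, against 3751 with the covariate, and at P28 against P1 7836 fell, against 4362 with the covariate and 4526 without dim probe sets. The share of calls that were higher was 67.1% at P12 against P1 and 51.9% after quantile normalization. With the covariate it was 56.9%, against 45.9%, at P28 against P12 and 60.9%, against 50.3%, at P28 against P1. With 3 or 4 arrays an age, probe sets near the Trp control value have no reliable size of change.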
